A study of Mus musculus with 12 samples.

Results

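Genes through which marrow stroma serves blood-forming cells were followed in cultured mouse mesenchymal stromal cells (MSCs): the growth factor genes Csf1, Il34, Kitl, Angpt1 and Il7, the adhesion molecule gene Vcam1 and the receptor gene Lepr. These 7 niche factors were picked by name, with earlier results of these data known, found by Ensembl identifier, and are 7 of the 55487 genes in the count table. The MSCs were primary bone marrow cells of wild-type (WT) C57BL/6 mice, which the study's methods describe as adherent cells flushed from the femurs of young females and expanded in culture. The stated growth medium, which contained serum, was the same for all 12 samples, apart from the insulin named below. The samples fall into 3 groups of 4: untreated control MSCs, MSCs given 50 μM A1 for 6 h, and MSCs given 50 μM A1 with 1 mg/mL ovalbumin (OVA), a model antigen, for 6 h. A1 is a bile acid, cholic acid, joined to a nuclear localization peptide of hnRNPA1, and the study asked how it changed the transcriptome of MSCs. A group given OVA alone was not analysed here. No treatment time is given for the control samples, and the study's RNA-seq methods name no vehicle for them. Time and handling in culture therefore cannot be told apart from A1. The protocol text also names insulin, with no amount, for the A1 + OVA medium. A difference of the A1 + OVA group from the A1 group or from control therefore cannot be told apart from one of medium. The labels do not say whether the 4 samples of a group came from separate animals or cultures, and p-values then measure only the spread between these samples.

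The bone marrow niche is the set of cells and signals that hold stem cells and feed the blood lineages. Stromal cells around the marrow sinusoids are known for making stem cell factor (Kitl), the chemokine CXCL12, angiopoietin 1 (Angpt1), interleukin 7 (Il7) and the macrophage growth factor CSF1, and for displaying VCAM1, which holds cells that carry the integrin VLA-4. In the marrow itself many of these stromal cells are recognised by the leptin receptor, Lepr. Their receptors, among them KIT, CSF1R, TIE2 (Tek) and the interleukin 7 receptor, sit mostly on blood cells and endothelium.

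After 6 h with A1, RNA of 4 niche factors had fallen and that of 1 had risen. Kitl fell most, to 21.5% of its control level, followed by Angpt1 at 28.7%, Il7 at 49.3% and Vcam1 at 51.7%, while Csf1 rose to 149%. The same 4 genes were lower and the same 1 higher with A1 + OVA, a comparison that shares its control samples with the first. Il34 passed the filter on low counts but not the test in either comparison, and Lepr, with 6 to 16 counts per sample, did not pass the filter. The background was broad. Of 11314 tested protein-coding genes, 62.7% differed between A1-treated and control MSCs, 31.7% higher and 31.1% lower, and 57.6% differed between A1 + OVA-treated and control MSCs, 29.7% higher and 27.9% lower. With a log2 fold change of at least 0.5 in size asked for as well, 9.41% were higher and 11.6% lower with A1, and 8.92% were higher and 8.79% lower with A1 + OVA. The 1 higher and 4 lower niche factors also passed this threshold in both comparisons, but Csf1 with A1 + OVA was close to it: its log2 fold change of 0.52 became 0.494 with upper-quartile scaling, 0.496 without control replicate 1 and 0.494 without A1 + OVA replicate 3. The median log2 fold change of the 6 tested niche factors was -0.99 with A1 and -1.18 with A1 + OVA, and that of all tested genes was -0.00 and 0.00.

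**Figure D1:**
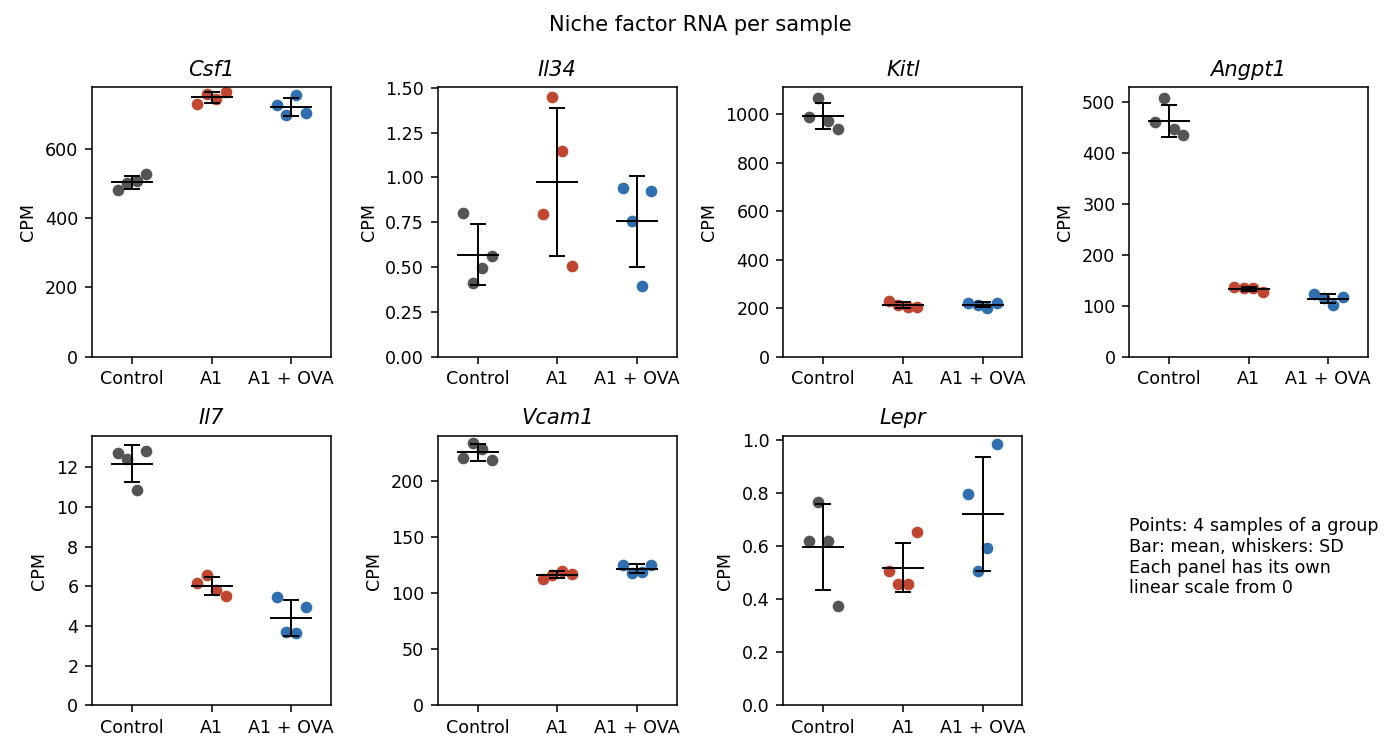
Expression of the 7 niche factors in CPM (counts scaled to library size, vertical axes, each on its own linear scale from 0) in the 4 samples of each group (points), with the group mean (bar) and SD (whiskers). Control samples of Kitl lie between 937 and 1067 CPM and treated samples between 201 and 229 CPM, whereas Csf1 is higher in all treated samples, and Il34 and Lepr reach at most 1.45 and 0.986 CPM with overlapping groups.

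Levels are given in CPM, the counts divided by the TMM-normalized library size, and comparisons come from edgeR's quasi-likelihood test on all 12 samples with Benjamini-Hochberg adjustment over the tested genes. A gene was called where its adjusted p was under 0.05. The libraries held 13702348 to 16881995 counts, and the 4 A1 libraries (up to 14347870) were all smaller than the 4 control libraries (from 15644991), a difference that the scaling takes into account. Of the 10 MSC markers, 9 passed the filter, with Col1a1 at 3335, 3246 and 3297 CPM in the means of the 3 groups. The summed CPM of the list was 8382 to 9326 in control, 8170 to 8931 in A1 and 8352 to 8805 in A1 + OVA samples. Most of that sum was Col1a1 and Col1a2 (4266 CPM in control), so it says little of the other markers. With A1, Pdgfra fell to 125 CPM and Cd44 rose to 458 CPM. The surface markers of the list differed in level. In control, Pdgfra was at 247, Cd44 at 175 and Ly6a at 35.1 CPM. Of the defining ones, Nt5e (CD73) had 7 to 14 counts, and Thy1 (CD90) had 0 to 3 counts apart from 17 in 1 control sample. The paper examined CD73 and CD90 as protein, by flow cytometry, which these RNA counts do not measure. Endothelial markers summed to at most 1.22 CPM in any sample, with Cldn5 at 0 in all 12. Blood cell markers summed to 9.66 to 10.6 CPM in control, 12.2 to 15.2 CPM in A1 and 10.8 to 13.3 CPM in A1 + OVA samples, mostly from Cd14, and C1qa and Tyrobp were at 0 in all 12. The osteoblast list summed to 1129 to 1221, 3041 to 3380 and 2003 to 2420 CPM in the 3 groups, nearly all of it Spp1, with Ibsp at 0 in all samples. The adipocyte list summed to 2000.1 to 2245 CPM in control, 799 to 823 CPM in A1 and 865 to 942 CPM in A1 + OVA samples, most of it Lpl. Both of these lists moved with treatment, and their part in the results below was not tested. In bulk RNA, fewer cells of a kind and less RNA per cell cannot be told apart.

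Csf1 (ENSMUSG00000014599, chr3:107741048-107760469, minus strand, GRCm38) encodes the growth factor that macrophages and osteoclasts depend on. It measured 482, 500.2, 505 and 527 CPM in the control samples, 729, 756, 744 and 763 CPM in the A1 samples and 726, 698, 756 and 702 CPM in the A1 + OVA samples. Each of the 8 treated samples was above all 4 control samples, and the ranges of both treated groups overlapped. The means were 504 ± 18.6, 748 ± 15.0 and 720.4 ± 26.7 CPM (SD, n = 4), and the log2 fold change was 0.57 with A1 (SE 0.04, 95% CI 0.49 to 0.65, adjusted p = 2.29e-11) and 0.52 with A1 + OVA (adjusted p = 1.36e-10). Between both treatments it was -0.05 (95% CI -0.13 to 0.02, adjusted p = 0.376). Ranked by log2 fold change, Csf1 was the 907th highest of the tested genes with A1.

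Il34 (ENSMUSG00000031750, chr8:110741829-110805924, minus strand) encodes the second ligand of CSF1R, best known from skin and brain. The control samples held 13, 7, 8 and 9 counts, the A1 samples 11, 19, 15 and 7 and the A1 + OVA samples 13, 12, 6 and 15. The groups overlapped in every comparison. At 0.569 ± 0.168 CPM in control, 0.975 ± 0.410 CPM with A1 and 0.756 ± 0.253 CPM with A1 + OVA (SD, n = 4), the log2 fold change was 0.76 with A1 (SE 0.34, 95% CI 0.05 to 1.47, adjusted p = 0.0598), 0.41 with A1 + OVA (adjusted p = 0.34) and -0.35 between the treatments (adjusted p = 0.52). These values rest on single samples. For A1 against control, the log2 fold change without control replicate 1 was 0.97 (adjusted p = 0.0319), without A1 replicate 4 it was 0.97 (adjusted p = 0.0176) and without A1 + OVA replicate 3 it was 0.76 (adjusted p = 0.0474). For A1 + OVA against control it was 0.62 without control replicate 1, 0.61 without A1 + OVA replicate 3 and 0.28 at the lowest, and between the treatments it was -0.10 without A1 replicate 2, -0.15 without A1 + OVA replicate 3 and -0.57 without A1 replicate 4, none of them called. Csf1 and Il34 share their receptor, so their balance was compared as well. The difference of their log2 CPM (prior count 2) was 9.51 ± 0.358 in control, 9.48 ± 0.572 in A1 and 9.72 ± 0.520 in A1 + OVA samples (SD, n = 4). It did not pass a two-sided exact permutation test between A1 and control (p = 0.886), A1 + OVA and control (p = 0.629) or A1 + OVA and A1 (p = 0.543). The adjusted p over these 3 comparisons was 0.886 for each, and 4 samples against 4 allow no exact p below 0.0286.

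Kitl (ENSMUSG00000019966, chr10:100015630-100100416, plus strand) encodes stem cell factor, the ligand of KIT that hematopoietic stem cells, mast cells and melanocytes need. It measured 989.5, 1067, 973 and 937 CPM in the control samples, 229, 212, 205 and 204 CPM in the A1 samples and 221, 213, 201 and 223 CPM in the A1 + OVA samples. No treated sample came near a control sample, and the treated groups overlapped. The mean of 991 ± 55.1 CPM in control MSCs stood against 213 ± 11.5 CPM with A1 and 214 ± 10.0 CPM with A1 + OVA (SD, n = 4). This was a 4.66-fold decrease with A1 (log2 fold change -2.22, SE 0.05, 95% CI -2.32 to -2.12, adjusted p = 2.6e-19) and a 4.63-fold decrease with A1 + OVA (log2 fold change -2.21, adjusted p = 3.54e-19). Between both treatments the log2 fold change was 0.01 (95% CI -0.09 to 0.11, adjusted p = 0.918). By log2 fold change, Kitl was the 27th lowest of 11314 tested genes with A1 and the 22nd lowest with A1 + OVA. The counts do not separate its transcripts for the membrane-bound and the readily shed protein.

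Kitl and Csf1 are the members furthest apart in direction that matched a promoter in the RefSeq sequence table, and so the stretches before their start sites are shown. Lepr matched as well, and Angpt1, Il7, Vcam1 and Il34 did not. The first line gives the 250 bases that end at the Csf1 start on the minus strand (chr3:107760470-107760719, GRCm38.p6), with every match to a searched motif in capitals. The second gives a stretch of 30 bases near the Kitl start on the plus strand, whose first base lies 37 bases before that start and which ends short of it (chr10:100015784-100015813), with a TATA box in capitals.
Csf1: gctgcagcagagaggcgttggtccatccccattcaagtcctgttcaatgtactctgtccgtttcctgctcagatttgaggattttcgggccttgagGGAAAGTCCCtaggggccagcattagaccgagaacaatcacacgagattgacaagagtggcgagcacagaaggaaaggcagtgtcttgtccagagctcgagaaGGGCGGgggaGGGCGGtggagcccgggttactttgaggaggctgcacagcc
Kitl: gggagggagctgTATAAAaagcgctggcgg
The Csf1 window held an NF-kappaB site starting 154 bases before the start and a pair of GC boxes (GGGCGG) starting 51 and 41 bases before it, none overlapping another. The TATA box of Kitl (TATAAA) starts 25 bases before its start, and 3 GC boxes lie at 143, 45 and 41 bases, the last 2 of which overlap. Within the 250 bases before the start, on either strand, 12.4% of 32851 promoters in the table held a TATA box, 32.7% a GC box and 3.90% an NF-kappaB site. AP-1 sites (TGANTCA, in 6.75% of promoters), cAMP response elements (TGACGTCA, 1.55%) and E-boxes (CACGTG, 6.02%) were searched for as well and had no match in either window. These are matches of letters only, and the GENCODE annotation places the Kitl start 191 bases upstream of the RefSeq start used here.

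Angpt1 (ENSMUSG00000022309, chr15:42424723-42676977, minus strand) encodes the TIE2 ligand that stabilises marrow vessels and is known for its part in stem cell quiescence. The 4 control samples measured 460.1, 508, 446 and 435 CPM, the A1 samples 137, 134, 134 and 126 CPM, and the A1 + OVA samples 122, 114, 102.1 and 117 CPM. The 3 groups did not overlap: every A1 + OVA sample was below every A1 sample, and these were below every control sample. From 462 ± 32.1 CPM in control, the level fell to 133 ± 4.52 CPM with A1 (SD, n = 4; log2 fold change -1.80, SE 0.05, adjusted p = 2.91e-17) and to 114 ± 8.56 CPM with A1 + OVA (log2 fold change -2.02, SE 0.05, adjusted p = 6.52e-18). It was the 66th lowest tested gene with A1 and the 35th lowest with A1 + OVA. Compared directly, A1 + OVA was lower than A1 by a log2 fold change of -0.22 (SE 0.05, 95% CI -0.34 to -0.11, adjusted p = 0.00942).

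Il7 (ENSMUSG00000040329, chr3:7569994-7613760, minus strand) encodes the cytokine on which B cell and T cell progenitors depend. It was the least abundant of the 5 called members, with 55 to 210 counts. The control samples measured 12.7, 12.4, 10.8 and 12.8 CPM, the A1 samples 6.15, 6.57, 5.80 and 5.52 CPM and the A1 + OVA samples 5.44, 3.67, 3.63 and 4.93 CPM. As for Angpt1, the 3 groups did not overlap, but the lowest A1 sample and the highest A1 + OVA sample were close. The means were 12.2 ± 0.915, 6.01 ± 0.452 and 4.42 ± 0.908 CPM (SD, n = 4). Il7 fell with A1 (log2 fold change -1.02, SE 0.11, adjusted p = 5.85e-08) and with A1 + OVA (log2 fold change -1.47, SE 0.11, adjusted p = 3.41e-10). A1 + OVA was lower than A1 by a log2 fold change of -0.45 (SE 0.13, 95% CI -0.72 to -0.17, adjusted p = 0.0299). That last call was lost when A1 replicate 1 (adjusted p = 0.0674), A1 replicate 2 (adjusted p = 0.0827), A1 + OVA replicate 2 (adjusted p = 0.0949) or A1 + OVA replicate 3 (adjusted p = 0.0984) was left out.

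Vcam1 (ENSMUSG00000027962, chr3:116109949-116129688, minus strand) encodes the adhesion molecule that retains VLA-4-bearing progenitors and leukocytes. Its control samples measured 221, 235, 229 and 219 CPM, the A1 samples 113, 117, 120.4 and 118 CPM and the A1 + OVA samples 125, 118, 119 and 125 CPM. All treated samples lay at about the same level, well below the lowest control sample. From 226 ± 7.29 CPM the mean fell to 117 ± 3.23 CPM with A1 (SD, n = 4; log2 fold change -0.95, SE 0.04, adjusted p = 4.74e-15) and to 122 ± 3.95 CPM with A1 + OVA (log2 fold change -0.89, adjusted p = 1.34e-14). The difference between both treatments was 0.06 (95% CI -0.02 to 0.14, adjusted p = 0.327).

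Lepr (ENSMUSG00000057722, chr4:101717404-101815352, plus strand) encodes the leptin receptor. The control samples held 10, 13, 10 and 6 counts, the A1 samples 7, 6, 6 and 9 and the A1 + OVA samples 11, 8, 9 and 16, with overlapping groups throughout. This came to 0.596 ± 0.162, 0.519 ± 0.0925 and 0.721 ± 0.215 CPM (SD, n = 4), where the filter asked for 0.653 CPM in 4 samples. Without the filter, in a fit of 16071 genes, the log2 fold change was -0.20 with A1 (95% CI -0.95 to 0.55, adjusted p = 0.708), 0.26 with A1 + OVA (95% CI -0.41 to 0.94, adjusted p = 0.569) and 0.46 between the treatments (95% CI -0.27 to 1.20, adjusted p = 0.527). At these low counts the intervals were wide, and any difference inside them remains possible. Lepr RNA, a label of marrow stroma in the animal, was near the detection limit in these cultured cells, whereas Cxcl12, another gene known from that stroma, was at 3910 CPM in control samples.

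**Figure D2:**
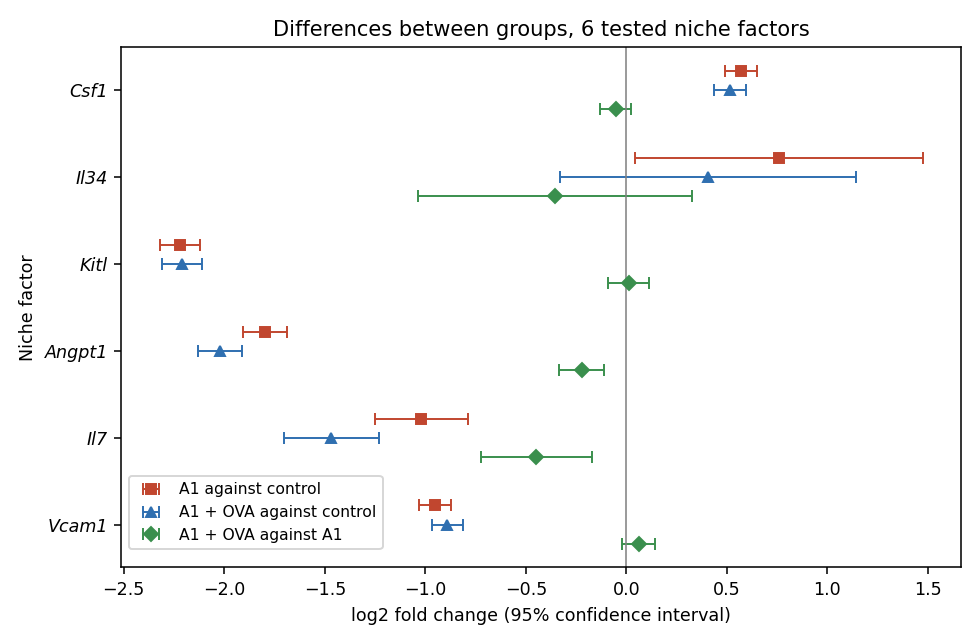
Log2 fold change with 95% confidence interval (horizontal axis) of the 6 tested niche factors (vertical axis) for A1 against control (squares), A1 + OVA against control (triangles) and A1 + OVA against A1 (diamonds). Kitl, Angpt1, Il7 and Vcam1 lie left of 0 against control and Csf1 to the right, and between both treatments the intervals of Angpt1 (-0.34 to -0.11) and Il7 (-0.72 to -0.17) lie away from 0.

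Between A1 + OVA and A1, 12.9% of the tested genes were called, 6.05% higher and 6.81% lower, and the 6 tested niche factors divided into 2 lower (Angpt1 and Il7), 0 higher and 4 without a call. Neither change reached a log2 fold change of 0.5 in size, as 0.433% of tested genes did downward and 0.769% upward, although that of Il7 was -0.55 without A1 + OVA replicate 1 and -0.51 without A1 + OVA replicate 4. The median log2 fold change of the niche factors was -0.14 and that of all tested genes 0.01. In CPM, groups did not overlap for 5 niche factors with A1, 5 with A1 + OVA and 2 between the treatments, where the share over all tested genes was 54.4%, 49.4% and 18.1%.

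To compare the members with each other, CPM was divided by the exon length of each gene. In control MSCs Kitl led at 168 CPM per kb, followed by Csf1 at 95.4, Angpt1 at 88.8, Vcam1 at 25.5, Il7 at 2.15, Il34 at 0.291 and Lepr at 0.0845 CPM per kb. Csf1 and Angpt1 overlapped in their samples, and no other neighbours in this order did. In A1-treated MSCs Csf1 came first at 142 CPM per kb, ahead of Kitl at 36.0, Angpt1 at 25.5, Vcam1 at 13.2, Il7 at 1.06, Il34 at 0.498 and Lepr at 0.0736 CPM per kb, with no overlap between neighbours. The order with A1 + OVA was the same as with A1, from Csf1 at 136 CPM per kb to Lepr at 0.102 CPM per kb, again with no overlap. The Csf1 to Kitl ratio of these levels was 0.570 ± 0.0462 in control, 3.95 ± 0.270 in A1 and 3.77 ± 0.303 in A1 + OVA samples (SD, n = 4). Within a group, the coefficient of variation between replicates was 2.01% to 3.70% for Csf1 and 2.77% to 3.24% for Vcam1, the lowest pair, and was highest for Il34, at 29.6% to 42.1%.

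**Figure D3:**
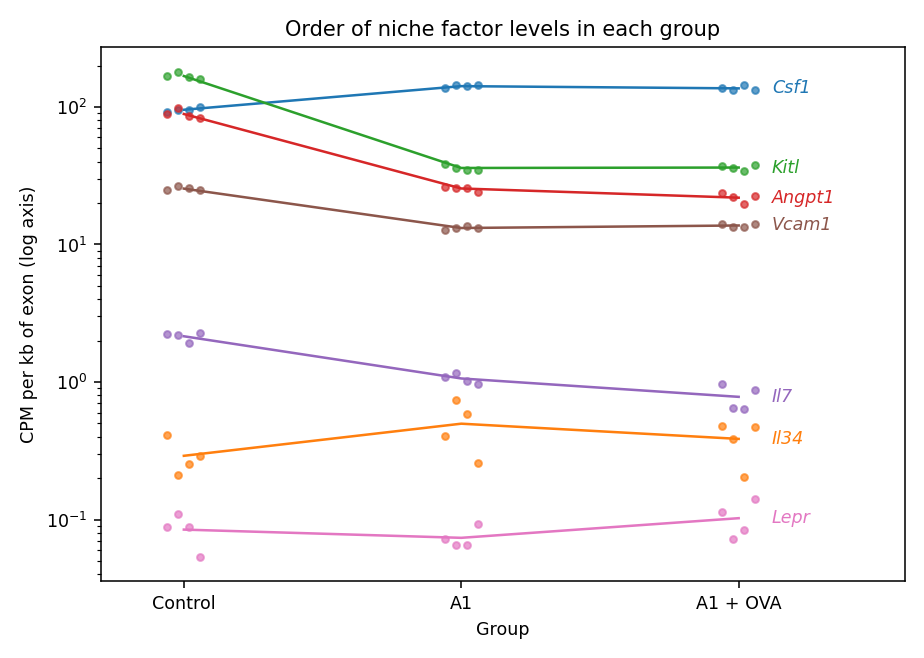
Level of each niche factor in CPM per kb of exon (vertical axis, logarithmic) in the 4 samples of each group (points), with lines that join the group means. Kitl leads in control MSCs at 168 CPM per kb and Csf1 in both treated groups at 142 and 136 CPM per kb, while the order of the other genes is kept.

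For each tested member, the pair of tested genes with the most similar profile over the 12 samples was found by the root mean square difference of centred log2 CPM. These are the smallest of all distances, so they lie below the median by selection. A small distance mostly reflects a similar difference from control, as for Igf1 (log2 fold change -2.25 with A1 and -2.11 with A1 + OVA) and Kitl. Shared control of the genes was not tested. Kitl was nearest to Igf1 (0.117) and Cldn1 (0.127), and Angpt1 to Eya1 (0.115) and Abcd2 (0.119), where the median over all tested genes was 1.05 for Kitl and 0.917 for Angpt1. The profile of Csf1 was nearest to those of Xpo5 (0.0410) and Ftsj3 (0.0431), against a median of 0.296. Vcam1 was nearest to Scd1 (0.0425) and Mindy2 (0.0505), with a median of 0.458, and Il7 to Hoxa10 (0.159) and Hmgcll1 (0.169), with a median of 0.645. Il34, at its low counts, had no neighbour closer than Sco2 (0.293) and Dcp1b (0.318), with a median of 0.499. Igf1, a secreted growth factor, is itself among the other niche ligands described next.

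Of 26 other niche ligands, 13 passed the filter, and with A1 5 were higher, 8 lower and 0 without a call (median log2 fold change -0.75). Over all tested genes, 31.7% were higher and 31.1% lower with A1. Cxcl12, the chemokine that holds stem cells and B cell progenitors in the marrow, fell from 3910 ± 130.0 to 1514 ± 63.6 CPM (SD, n = 4; log2 fold change -1.37, adjusted p = 3.05e-17). Also lower with A1 were Bmp4 (27.6 to 4.13 CPM, log2 fold change -2.74) and Igf1 (22.8 to 4.80 CPM, -2.25). The Notch ligands Jag1 (-0.67) and Dll1 (-1.29) fell as well, as did the lymphoid cytokines Flt3l (-0.75) and Il15 (-2.03) and the inflammatory cytokine Il6 (-1.38). Il15 passed the filter through the control samples alone and had 3 to 5 counts per A1 sample and 1 to 2 per A1 + OVA sample. Il6 had 18 to 25 counts per control sample and 4 to 9 per A1 sample. Its RNA is a measure apart from the secreted protein, which the paper reported as increased with A1. In the other direction, Fgf2, a mitogen of stromal cells, rose from 16.4 ± 2.00 to 129 ± 2.85 CPM (SD, n = 4; log2 fold change 2.98, adjusted p = 2.26e-19). Spp1, the matrix protein osteopontin, rose from 1148 to 3190.5 CPM (log2 fold change 1.48), and Tgfb1 (0.75), Lif (1.64) and Wnt5a (0.23) were higher too. Lif, a cytokine of the interleukin 6 family, passed the filter through treated samples alone and rested on 4 to 33 counts per sample. Il15 and Lif are part of the counts and the median above, and the filter favoured the direction in which each was called.

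With A1 + OVA, 4 of these ligands were higher than in control, 7 lower and 2, Flt3l (-0.30) and Wnt5a (-0.01), without a call. The shares over all tested genes were 29.7% higher and 27.9% lower. Compared with A1 alone, 1 was higher, 3 lower and 9 without a call, beside 6.05% higher and 6.81% lower over all tested genes. Cxcl12 was higher at 1692 ± 57.1 CPM (SD, n = 4; log2 fold change 0.16, adjusted p = 0.0106), and Spp1 was lower at 2205 ± 178 CPM (-0.53, adjusted p = 3.92e-07). Fgf2 (-0.28) and Wnt5a (-0.24) were the others that were lower. The ligands that did not pass the filter include Thpo, the platelet growth factor, with at most 5 counts per sample, Csf2 with at most 4 and Csf3 with at most 3, and Il3, at 0 in all 12 samples. For Csf2 and Csf3 too, the paper reported more secreted protein (GM-CSF and G-CSF) with A1, from the pooled serum-free medium named above.

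**Figure D4:**
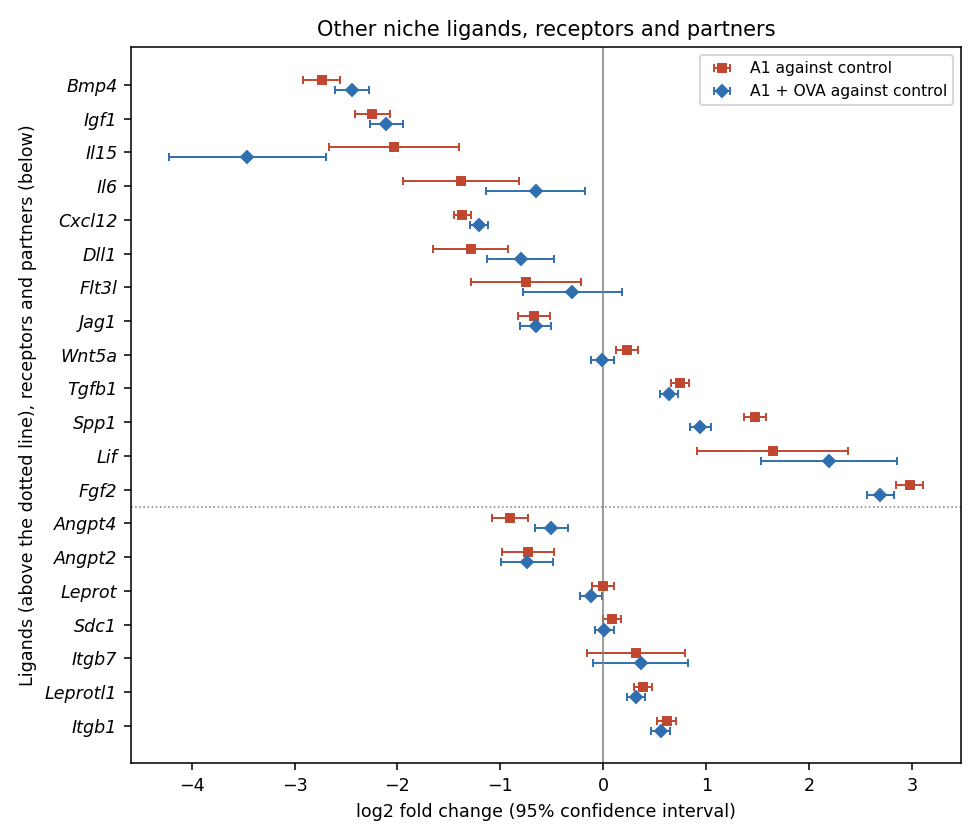
Log2 fold change with 95% confidence interval (horizontal axis) against control for A1 (squares) and A1 + OVA (diamonds), for the tested genes (vertical axis) among other niche ligands (above the dotted line) and receptors and partners of the niche factors (below it). Bmp4, at -2.74, and Fgf2, at 2.98, are at the ends with A1, and the lowest A1 + OVA value, that of Il15, rests on 1 to 2 counts per treated sample.

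Of 16 receptors and partners, 9 did not pass the filter: Kit had 6 to 18 counts per control sample, 0 to 7 with A1 and 4 to 8 with A1 + OVA, Csf1r 1 to 14 counts per sample, Il2rg 4 to 11 and Ptprz1 2 to 11. Tek, which encodes the receptor of the angiopoietins, had at most 5 counts, Il7r at most 5, Tie1 and Itga4 (the alpha chain of VLA-4) at most 1, and Lep 0. The other 7 were tested, and with A1 2 were higher, 2 lower and 3 without a call, beside 31.7% higher and 31.1% lower over all tested genes. Itgb1, the beta chain of VLA-4 and of many other integrins, rose from 1451 to 2225 CPM (log2 fold change 0.62), and Leprotl1, a paralog of Leprot, rose by 0.39. The further angiopoietins Angpt2 (-0.73) and Angpt4 (24.98 to 13.3 CPM, -0.91) fell. Sdc1 (144 CPM in control, 0.09), Itgb7 (0.32) and Leprot (-0.00) did not pass the test. The counts with A1 + OVA were also 2, 2 and 3, beside 29.7% higher and 27.9% lower over all tested genes. Angpt4 was higher in A1 + OVA than in A1 samples (0.41, adjusted p = 0.00414).

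Among 15 transcription factors known from marrow stroma, 13 were tested, and with A1 3 were higher, 7 lower and 3 without a call (median log2 fold change -0.30). Over all tested genes, 31.7% were higher and 31.1% lower. Snai2 fell from 316 to 131 CPM (log2 fold change -1.27), Foxc1, which maintains CXCL12-rich reticular cells, from 264 to 126 CPM (-1.07), Osr1 from 22.8 to 10.8 CPM (-1.07), and Ebf1 from 233 to 116 CPM (-1.01). Runx1 (0.70), Twist2 (0.58) and Twist1 (0.28) were higher. With A1 + OVA, 2 were higher, 8 lower and 3 without a call, beside 29.7% higher and 27.9% lower over all tested genes. Compared with A1 alone, 1 was higher, 5 lower and 7 without a call, beside 6.05% and 6.81%. Ebf1 was among the lower ones (-0.16, adjusted p = 0.0266).

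CSF1, VCAM1 and KIT ligand can be cut from the cell surface by proteases. Of 11 sheddases and their inhibitors, 10 were tested, and with A1 5 were higher, 4 lower and 1 without a call. The shares over all tested genes were 31.7% higher and 31.1% lower. Adam17, a protease that sheds many membrane proteins, fell from 136 to 89.3 CPM (log2 fold change -0.61), and Rhbdf2, which helps it to the surface, from 15.9 to 9.78 CPM (-0.70). Its inhibitor Timp3 rose from 3.40 to 12.9 CPM (1.92) and Timp1 from 95.8 to 253 CPM (1.40). RNA does not measure shedding, and the proteins were not analysed here.

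Vcam1 was set beside 14 other adhesion molecules, of which 8 were tested and, with A1, 4 were higher, 2 lower and 2 without a call. For this list and the next ones, the shares over all tested genes were 31.7% higher and 31.1% lower. Cd44, a hyaluronan receptor, rose from 175 to 458 CPM (log2 fold change 1.39) and Mcam (CD146) from 23.7 to 44.6 CPM (0.91). Alcam, which passed the filter through treated samples alone, rose from 0.321 to 0.747 CPM (1.19). It is among the 4 higher genes, a direction that the filter favoured. The cadherin Cdh11 fell from 213 to 104 CPM (-1.03). Icam1 had at most 3 counts per sample. Vcam1 is also a known target of NF-kappaB, and of 12 feedback targets of that factor 11 were tested, of which 2 were higher, 4 lower and 5 without a call with A1 (median log2 fold change 0.00). The called genes with the largest changes were Tnip1 (-0.64), Tnfaip2 (0.43), Nfkb1 (-0.22) and Nfkbiz (0.18). The 10 genes of leptin receptor signalling were all tested, and 5 were higher, 4 lower and 1 without a call with A1, led by Stat5a (-0.72), Irs2 (0.59), Socs3 (0.38) and Ptpn1 (0.36). With Lepr at 6 to 16 counts per sample and Lep at 0, these changes are no measure of signalling through the leptin receptor, which was not tested.

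Antisense genes overlap exons of Angpt1, Il7, Vcam1 and Il34 on the opposite strand, for which the stated protocol was strand-specific.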

How the data were processed

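RNA of 12 MSC samples was measured by strand-specific, polyA-selected RNA-seq. Per the labels, the authors used bcl2fastq 2.20, STAR 2.7 on GRCm38 and featureCounts 2.0, and deposited raw counts for 55487 genes, without normalization. The groups were taken from the sample titles.

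Symbols, biotypes, coordinates and exon lengths came from GENCODE M21, an earlier release, which holds 99.53% of the gene identifiers, 21974 of them protein-coding. Protein-coding genes held 97.7% to 98.5% of counts. The filter was filterByExpr and the scaling TMM. All 3 groups entered a single quasi-likelihood fit without covariates (edgeR 4.0.16 in R 4.3.3), with Benjamini-Hochberg adjustment over 11314 genes. DESeq2 1.42.0 was an alternative, with the others given in the closing section. Promoters came from RefSeq on GRCm38.p6 (3 of 7 members matched). A floor of 3 counts per library was set apart from the tests, which genes entered through filterByExpr, so single samples of tested genes can lie below it. The 4 samples per group limit the precision.

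Members and lists were chosen with earlier results of these data known. The text names all members, the tested genes among other niche ligands and receptors, up to 4 called genes with the largest changes in each other list, listed receptors or ligands without a test, and the 2 nearest genes to each tested member. Runx1, Twist1, Twist2, Col1a1, Col1a2, Pdgfrb, Pparg and Fabp4 belong to these lists but are named outside this rule, after their values were seen. No list gained or lost a gene. Replicate numbers were checked as pairs. After subtracting group means, the 12 pairs that share a number correlated at 0.021 on average (-0.13 to 0.16). The 36 pairs that do not averaged -0.007, a value that the subtraction largely fixes, so it is no separate comparison. No clear pairing by number was seen. Relative to counting error, the variance between replicates was 1.92 to 6.87, so that no pair of samples counts as 1 library. The test was tried on simulated data.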

Additional observations from a re-analysis of the deposited data

How the results depend on the processing

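The calls of the 6 tested niche factors against control kept their direction and their side of an adjusted p of 0.05 under upper-quartile and RLE scaling, DESeq2, no filter on low counts, all gene types, fits of only the groups compared, and the replicate number as a block, and so did the calls between both treatments. A minimum of 10 counts in every sample gave no value for Il34, and DESeq2 gave no adjusted p for it between both treatments. With the replicate block, 7134, 6580 and 1488 genes were called for A1 against control, A1 + OVA against control and A1 + OVA against A1, where 7098, 6518 and 1455 were called without it, and Angpt1 differed between both treatments by -0.22 (adjusted p = 0.00538). No clear pairing by number had been seen, and the block changed no call of a member. Asking for a log2 fold change of at least 0.5 in size left 2372, 2004 and 136 genes.

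With each sample left out in turn, 6707 to 7175, 6098 to 6553 and 971 to 1619 genes were called. Against control, the log2 fold changes with A1 ranged from 0.55 to 0.59 for Csf1, -2.26 to -2.18 for Kitl, -1.83 to -1.75 for Angpt1, -1.07 to -0.99 for Il7, -0.97 to -0.93 for Vcam1 and 0.51 to 0.97 for Il34. Between both treatments they ranged from -0.26 to -0.17 for Angpt1 (adjusted p up to 0.0381), from -0.55 to -0.37 for Il7 and from -0.012 to 0.044 for Kitl, which changed sign without A1 replicate 3 or 4 or A1 + OVA replicate 1 or 4. The Csf1 to Il34 difference ranged from -0.28 to 0.16 for A1 against control, -0.053 to 0.32 for A1 + OVA against control and -0.018 to 0.48 between the treatments, and it changed sign without control replicate 2 (0.07) or 3 (0.01), A1 replicate 2 (0.16) or 3 (0.06), and, in each of the last 2 comparisons, without A1 + OVA replicate 3 (-0.053 and -0.018). The cause was not tested. Depth limits Il34 and Lepr, whose counts are too low for any but large differences.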

Other observations

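The markers of the cells themselves were mixed in direction. Of 9 tested MSC markers, 2 were higher, 3 lower and 4 without a call with A1, beside 31.7% higher and 31.1% lower over all tested genes. Pdgfra, which labels a stromal population of the marrow, fell from 247 ± 9.64 to 125 ± 6.13 CPM (SD, n = 4; edgeR log2 fold change -0.99, adjusted p = 7.1e-13), and Ly6a (-0.59) and Col1a2 (-0.23) were lower, while Cd44 (1.39) and Itgav (0.70) were higher. Pdgfrb was at 389 ± 21.3 and 387 ± 8.98 CPM (SD, n = 4) and was not called.

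Among the adipocyte markers, 5 were tested and 3 were lower with A1, where 31.1% of all tested genes were lower. Lpl, lipoprotein lipase, fell from 1840 ± 105 to 584 ± 14.1 CPM (SD, n = 4; log2 fold change -1.65), Cebpa from 83.9 to 41.7 CPM (-1.01) and Adipoq from 2.204 to 0.670 CPM (-1.71), and Pparg (-0.01) and Fabp4 (0.02) were not called. Adipoq had 16 to 45 counts per control sample and 8 to 10 per A1 sample. All 3 tested osteoblast markers were called with A1, where 62.7% of all tested genes were: Spp1 (1.48) and Dmp1 (1.71) higher and Alpl (-0.75) lower. Dmp1 had 7 to 15 counts per control sample and 29 to 36 per A1 sample. The osteoblast markers Sp7, Bglap and Ibsp, with at most 2, 1 and 0 counts per sample, were not tested.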
